A study of Mus musculus with 6 samples.

Results

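The Rab genes encode small GTPases, the largest branch of the Ras superfamily, and were described here as a family in mouse monocytes sorted from tumor and from spleen. Members were taken by symbol, Rab followed by a number and at most a letter and a further digit, among probe sets annotated with a single gene. Of 22180 genes with such a probe set, 58 were Rab genes, and 57 of them were among the 18458 genes that passed the filter on dim signals (above the 25th percentile of the array on at least 3 arrays). The member that failed was Rab4a, a GTPase of fast recycling, at levels of 2.88 to 3.63 in spleen and 3.25 to 3.45 in tumor. Symbols followed the platform's annotation, and all 58 matched a RefSeq gene identifier with the same symbol. A further 3 probe sets that carry a Rab symbol together with another gene were not used here.

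RNA was measured on Mouse Gene 2.0 ST arrays, on which many short probes are combined into an intensity per probe set. Each of the 6 arrays held inflammatory monocytes, sorted by flow cytometry as CD11b+, CD11c-negative and Ly6C-high, from spleen (n = 3) or from tumor (n = 3). All mice, those of the spleen arrays included, had received Th9 cells, a kind of helper T cell, 10 days earlier, so no group without Th9 cells enters the comparison. The sources used here do not name the mouse strain, age, sex or kind of tumor, and their strain field reads Th9. The labels do not tie the 3 arrays of a tissue to different animals, and the p-values therefore cover array-to-array spread that could be technical. A level here is log2(intensity + 1), with mean ± SD over n = 3 arrays, and differences are tumor minus spleen on that scale, ± SE of the limma fit, which understates changes of dim genes. In sorted bulk samples, fewer cells of a type and less RNA per cell cannot be told apart.

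Rab proteins switch between a GDP-bound form held in the cytosol and a GTP-bound form anchored to membrane by prenyl groups. Exchange factors load GTP, GTPase-activating proteins end the active state, and effectors recruited by the active form tether, move or fuse vesicles. Each Rab marks a set of membranes, so that early endosomes, recycling endosomes, late endosomes, the Golgi and secretory granules can be read from the members they carry. In macrophages and monocytes the family is known for phagosome maturation, surface receptor recycling and cytokine secretion.

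The sort and the neighbouring cell types were read first. Itgam, which encodes CD11b, went from 10.04 ± 0.15 (spleen) to 9.19 ± 0.22 (tumor), and Ly6c2, of the Ly6C antigens, from 6.82 ± 0.58 to 8.29 ± 0.40. Itgax, which encodes CD11c, the antigen the sort selected against, gave signal in both tissues (11.16 ± 0.12 and 10.31 ± 0.17). Of 9 classical monocyte markers on the table, 4 were called higher in tumor (44.4%, against 5.73% of all genes) and 3 lower (33.3%, against 4.85%). Their summed intensities were 11256 to 12901 in spleen and 10579 to 11769 in tumor. The rises were Ms4a4c (4.67), Vcan (2.44), Ly6c2 (1.48) and Plac8 (0.68), and the falls Ccr2 (-0.93), Itgam (-0.85) and Csf1r (-0.57). Ly6c2 was not called without spleen 1 or spleen 2, nor Itgam without spleen 2, tumor 1 or tumor 2 (limma adjusted p up to 0.0711 and 0.0801). Plac8 lost its call without spleen 1, spleen 2, tumor 1 or tumor 2, and Csf1r without any array but tumor 3 (up to 0.119 and 0.173). Ms4a4c, Vcan and Ccr2 stayed called with each array left out in turn. Of 7 dendritic cell markers 2 were higher (28.6%), Zbtb46 and Ccr7, and 1 lower (14.3%), Itgax. Ccr7 lost its call with any array left out, Zbtb46 without spleen 1, spleen 2 or tumor 2, and Itgax without tumor 1 (limma adjusted p up to 0.158, 0.0627 and 0.0594). The summed intensities of this list reached 14672 to 15083 in spleen and 13927 to 14694 in tumor, led by H2-Ab1 and Ccr7. The platelet list (677 to 922 in spleen, 318 to 353 in tumor) and the T and NK cell list (242 to 281 and 146 to 190) were lower in tumor in summed intensity. Called lower were 1 of 5 platelet genes (20%, Ppbp) and 1 of 6 T and NK cell genes tested (16.7%, Cd3g), against 4.85% of all genes. The neutrophil (1045 to 1076 and 882 to 907), fibroblast and endothelial (504 to 573 and 442.3 to 469.8), epithelial (236 to 317 and 210.5 to 305) and B cell lists (86.0 to 161 and 75.7 to 122) had 0 limma calls in either direction (1 gene, of the fibroblast and endothelial list, at an unadjusted p under 0.05). With the replicate number fitted as a block, 1 gene was lower in each of these lists but that of B cells (12.5%, 16.7% and 20%, against 17.3% of all genes). The dendritic cell and platelet lists then had 2 lower each (28.6% and 40%). Among melanocyte markers Tyr, Tyrp1 and Dct lay below the array median on all 6 arrays, and the list, with 0 calls among 5, summed to 104 to 136 in spleen and 107 to 127 in tumor. The arrays numbered 3 stood apart in both groups, with array medians of 4.73 and 4.76 against 4.50 to 4.51 on the others. The part of these differences in the Rab results was not tested, beyond the values among the arrays numbered 1 and 2 given beside them.

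Between tumor and spleen, Rab12, Rab21, Rab20, Rab22a, Rab32 and Rab8b were higher and Rab7b was lower, while most of the family differed little. Of the 57 members tested, 7 were called (12.3%) at a limma adjusted p under 0.05, 6 higher (10.5%) and 1 lower (1.75%). Among all 18458 genes 10.6% were called, 5.73% higher and 4.85% lower, so the total share was near that of all genes. In quantile-normalized values the split was 9 higher and 3 lower, where 19.0% of all genes were called (8.59% higher, 10.4% lower). After centring each array on its median it was 8 and 3 (17.8% of all genes, 8.03% higher, 9.78% lower). Among the arrays numbered 1 and 2 alone it was 6 and 3 (15.9% of all genes, 7.51% higher, 8.39% lower), and with the replicate number as a block it was 11 and 6. With the block, 29.8% of the members were called, against 29.0% of all genes (11.7% higher, 17.3% lower). Differences of the 57 members ran from -0.69 to 1.16 with a median of 0.07, against a median of -0.05 over all genes, and 32 members (56.1%) lay above 0, against 41.4% of all genes. Only Rab12 was called with a change of at least 2-fold (1.75% of members), which held for 5.33% of all genes. Without spleen 1, spleen 2 or tumor 1 the called members fell to Rab12 and Rab21, and without spleen 3 or tumor 2 Rab7b was not called; without tumor 3 there were 4 higher and 3 lower.

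**Figure D1:**
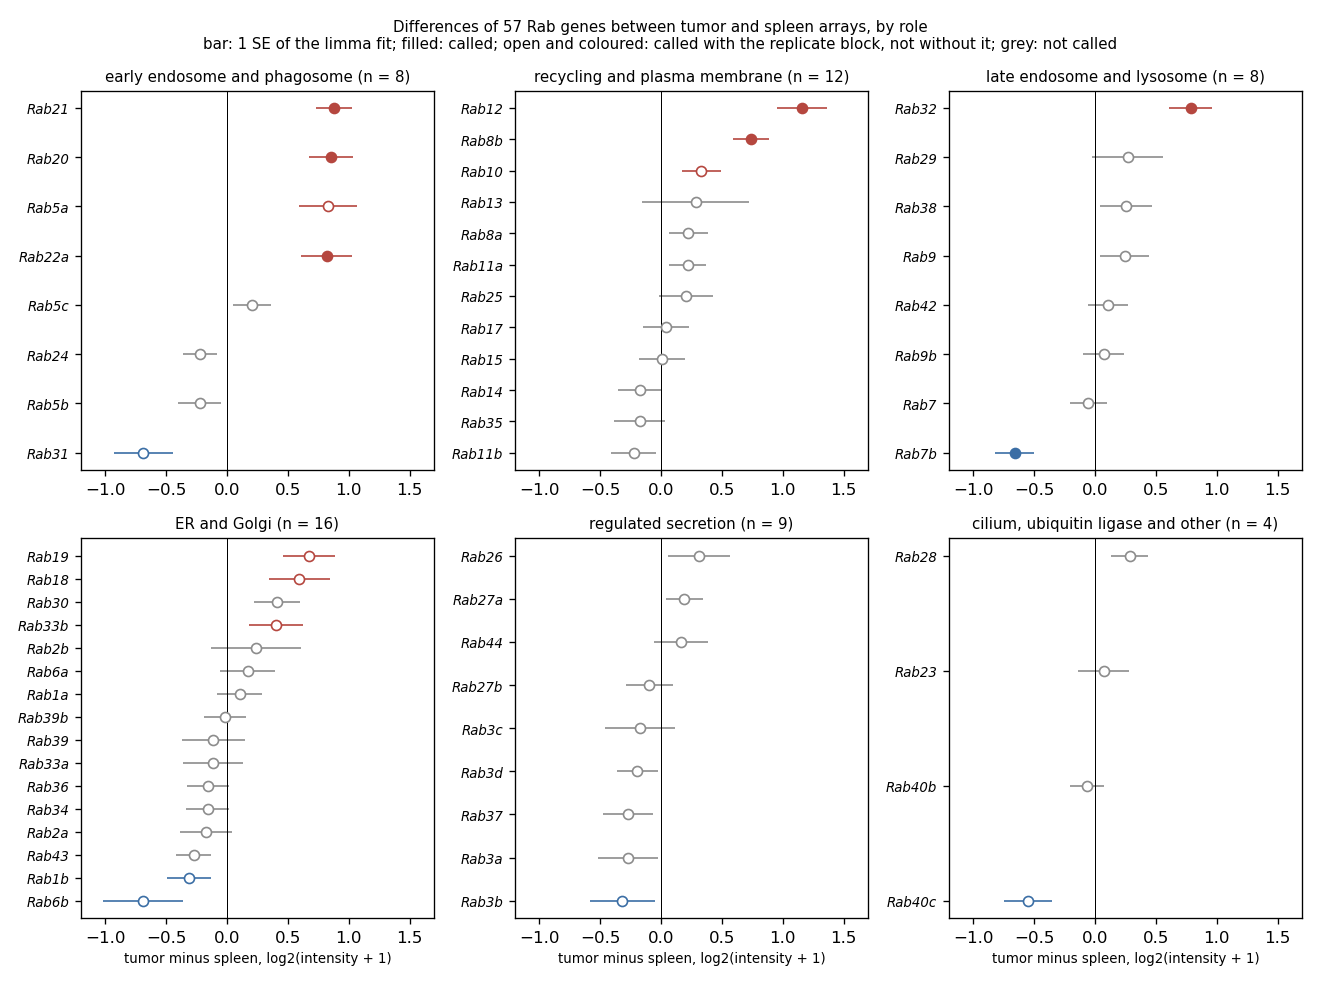
Differences between the 3 tumor and 3 spleen arrays (x axis, log2(intensity + 1); bars are 1 SE) of the 57 Rab genes tested, in panels by role. Filled points mark the 7 called genes, open coloured points those called with the replicate block but not without it, and the early endosome panel holds 3 of the 6 rises.

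The upstream sequences of 4 members, all on the higher side in tumor, are shown as examples of motif letters. They were taken from RefSeq (GRCm38.p6) as the 250 bases before the annotated transcript start, 5′ to 3′ on the gene's strand, with matches in capitals. Letters searched on both strands were those of interferon response elements (GAAA, any 2 bases, GAAA), STAT sites (TTC, any 3 bases, GAA), NF-kB sites (GGGA, any 4 bases, CC) and the E-box, CACGTG.
Rab21 (chr10:115315592-115315841, minus strand): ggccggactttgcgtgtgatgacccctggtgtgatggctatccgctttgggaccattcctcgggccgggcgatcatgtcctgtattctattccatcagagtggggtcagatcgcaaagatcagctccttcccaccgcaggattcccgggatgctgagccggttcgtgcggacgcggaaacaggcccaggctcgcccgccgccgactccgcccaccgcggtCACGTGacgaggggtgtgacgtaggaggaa
Rab20 (chr8:11478641-11478890, minus strand): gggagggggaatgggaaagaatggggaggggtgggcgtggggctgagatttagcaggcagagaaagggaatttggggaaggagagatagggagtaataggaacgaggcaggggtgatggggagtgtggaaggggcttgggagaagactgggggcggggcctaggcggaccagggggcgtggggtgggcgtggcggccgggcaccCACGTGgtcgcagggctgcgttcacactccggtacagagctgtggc
Rab5a (chr17:53478984-53479233, plus strand): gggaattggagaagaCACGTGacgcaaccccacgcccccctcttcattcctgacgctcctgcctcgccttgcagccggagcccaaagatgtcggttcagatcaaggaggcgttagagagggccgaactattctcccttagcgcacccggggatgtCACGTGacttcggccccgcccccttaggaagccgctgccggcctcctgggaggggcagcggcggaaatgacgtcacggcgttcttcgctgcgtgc
Rab19 (chr6:39381103-39381352, plus strand): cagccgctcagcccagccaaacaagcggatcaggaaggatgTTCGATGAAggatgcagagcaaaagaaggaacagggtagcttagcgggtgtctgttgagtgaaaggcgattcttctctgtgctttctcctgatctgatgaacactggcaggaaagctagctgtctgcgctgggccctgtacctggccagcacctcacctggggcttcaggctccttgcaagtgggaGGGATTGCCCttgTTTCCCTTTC
The capitals mark CACGTG in Rab21, Rab20 and Rab5a, which holds it 2 times. In Rab19 they mark, from left to right, TTCGATGAA of the STAT kind, GGGATTGCCC of the NF-kB kind and TTTCCCTTTC, the interferon kind on the opposite strand, which ends at the last base before the start. Windows were found for 47 of the 57 genes (59 windows), of which 5 (8.47%) held CACGTG, against 6.02% of 32851 windows of all genes. Among the 5 were windows of Rab23 (difference 0.07 ± 0.21) and Rab27a (0.19 ± 0.15), which were not called and are not shown. The interferon pattern was in 1 Rab window, that of Rab19 (1.69%, against 2.98% of all windows), the STAT pattern in 5 (8.47% against 7.02%) and the NF-kB pattern in 6 (10.2% against 17.6%). Windows of Rab11a, Rab15, Rab25 and Rab34 (STAT pattern) and of Rab15, Rab31, Rab34, Rab5c and Rab7 (NF-kB pattern) are not shown. Of these genes, Rab7, Rab31 and Rab34 had negative differences. A link between the letters and the differences was not tested. These are letter matches and not measured binding sites, and no window of Rab12, Rab22a, Rab32 or Rab8b held any of the 4 patterns. Rab7b, the only member called lower, had no window and was not searched.

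Early endosome and phagosome members had the most rises, 3 against 2 in the recycling group. The role groups were drawn up with earlier results of these data known, so these shares only describe them. Without spleen 1, spleen 2 or tumor 1, Rab21 was the only member of this group called. Of 8 tested, 3 were called higher (37.5%, against 5.73% of all genes) and 0 lower (against 4.85%), with a median difference of 0.51. With the replicate block 4 were higher (50%, against 11.7% of all genes) and 1 lower (12.5%, against 17.3%). Rab21, which controls integrin internalization and early endosome traffic (probe set 17245034, Entrez gene 216344), had levels of 9.62, 9.65 and 9.83 on spleen arrays 1 to 3 and of 10.59, 10.44 and 10.71 on tumor arrays 1 to 3. All tumor values lay above all spleen values. The difference was 0.88 ± 0.15, or 1.84-fold (limma adjusted p = 0.00664), and it stayed called with each array left out in turn (adjusted p up to 0.0443). Rab20, found on maturing phagosomes (probe set 17507435, Entrez gene 19332), had 7.19, 7.21 and 7.61 in spleen and 8.11, 8.03 and 8.43 in tumor, again without overlap. Its difference was 0.85 ± 0.18, or 1.81-fold (limma adjusted p = 0.0204). A dimmer probe set of Rab20 stood at 0.17 ± 0.19, and with both averaged the difference was 0.51 (adjusted p = 0.145). Leaving out spleen 1, spleen 2 or tumor 1 ended the call of Rab20 (adjusted p as high as 0.0969).

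Rab22a, an early endosome GTPase of recycling and MHC class I traffic (probe set 17380251, Entrez gene 19334), had 8.14, 8.05 and 8.63 in spleen and 9.02, 8.86 and 9.39 in tumor. The groups did not overlap, and array 3 was the highest of each. The difference of 0.82 ± 0.21, or 1.76-fold, was close to the threshold (limma adjusted p = 0.0441, and 0.000532 with the replicate block). It was lost with no filter on dim genes (adjusted p = 0.0518) and without any array but spleen 3 (up to 0.172). Rab5a, the master GTPase of early endosome fusion, had 8.58, 8.45 and 9.01 in spleen and 9.66, 9.05 and 9.82 in tumor. Its groups did not overlap but tumor 2 stood just above spleen 3, and the difference of 0.83 ± 0.24 was not called (limma adjusted p = 0.0659, and 0.114 among the arrays numbered 1 and 2). It was called with the replicate block (0.00148), quantile normalization (0.0149), median centring (0.0166), cyclic loess (0.00816), the 50th percentile filter (0.0467) and array weights (7.4e-05), and without spleen 3 (0.0389) or tumor 2 (0.027). Rab31, which carries cargo between the trans-Golgi and endosomes and is also known as Rab22b, lay on the lower side, with 9.49, 9.50 and 10.22 in spleen and 9.11, 8.73 and 9.30 in tumor. Its difference was -0.69 ± 0.24 (limma adjusted p = 0.13, and 0.00503 with the block). Rab31 was also called with quantile normalization (0.00933), median centring (0.0296) and cyclic loess (0.0393). Without spleen 3 its difference was -0.44 (adjusted p = 0.247), and with array weights -0.46 (0.00666). The remaining members of this group, Rab5b (-0.22 ± 0.18), Rab5c (0.20 ± 0.16) and Rab24 (-0.22 ± 0.14), a GTPase of autophagic vesicles, were not called in either fit.

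Recycling and plasma membrane members held the largest difference of the family. Of 12 tested, 2 were called higher (16.7%, against 5.73% of all genes) and 0 lower, and 9 lay above 0 (as did 41.4% of all genes). With the replicate block 3 were higher (25%, against 11.7%) and 0 lower. Rab12, which sends the transferrin receptor from recycling endosomes to lysosomes (probe set 17346840, Entrez gene 19328), had 8.36, 8.49 and 8.78 in spleen and 9.64, 9.41 and 10.06 in tumor. Every tumor value exceeded every spleen value, by 0.92 to 1.28 between arrays of the same number. The difference was 1.16 ± 0.20, or 2.23-fold (limma adjusted p = 0.00827), and stayed called with each array left out in turn (adjusted p up to 0.0404). Rab8b, which acts in traffic to the plasma membrane (probe set 17528405, Entrez gene 235442), had 10.25, 10.25 and 10.04 in spleen and 11.04, 10.76 and 10.95 in tumor. It rose by 0.74 ± 0.15, or 1.67-fold (limma adjusted p = 0.0163), and was not called without spleen 1, spleen 2 or tumor 1 (adjusted p up to 0.089). Its relative Rab8a, of exocytosis and the cilium, had 10.23, 10.25 and 10.56 in spleen and 10.49, 10.51 and 10.71 in tumor, which overlap, and was not called (0.22 ± 0.16, limma adjusted p = 0.53). Rab10, of exocytosis and glucose transporter recycling, had 9.99, 9.93 and 10.17 in spleen and 10.34, 10.17 and 10.56 in tumor. These values touch, and its difference of 0.33 ± 0.16 was not called (limma adjusted p = 0.291). It was called with the replicate block (0.0317), cyclic loess (0.0355) and array weights (0.0038). Rab11a (0.22 ± 0.15) and Rab11b (-0.22 ± 0.19), the GTPases of slow recycling, stood on opposite sides of 0 and were not called, nor were Rab14, Rab35, Rab13, Rab15, Rab17 and Rab25.

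**Figure D2:**
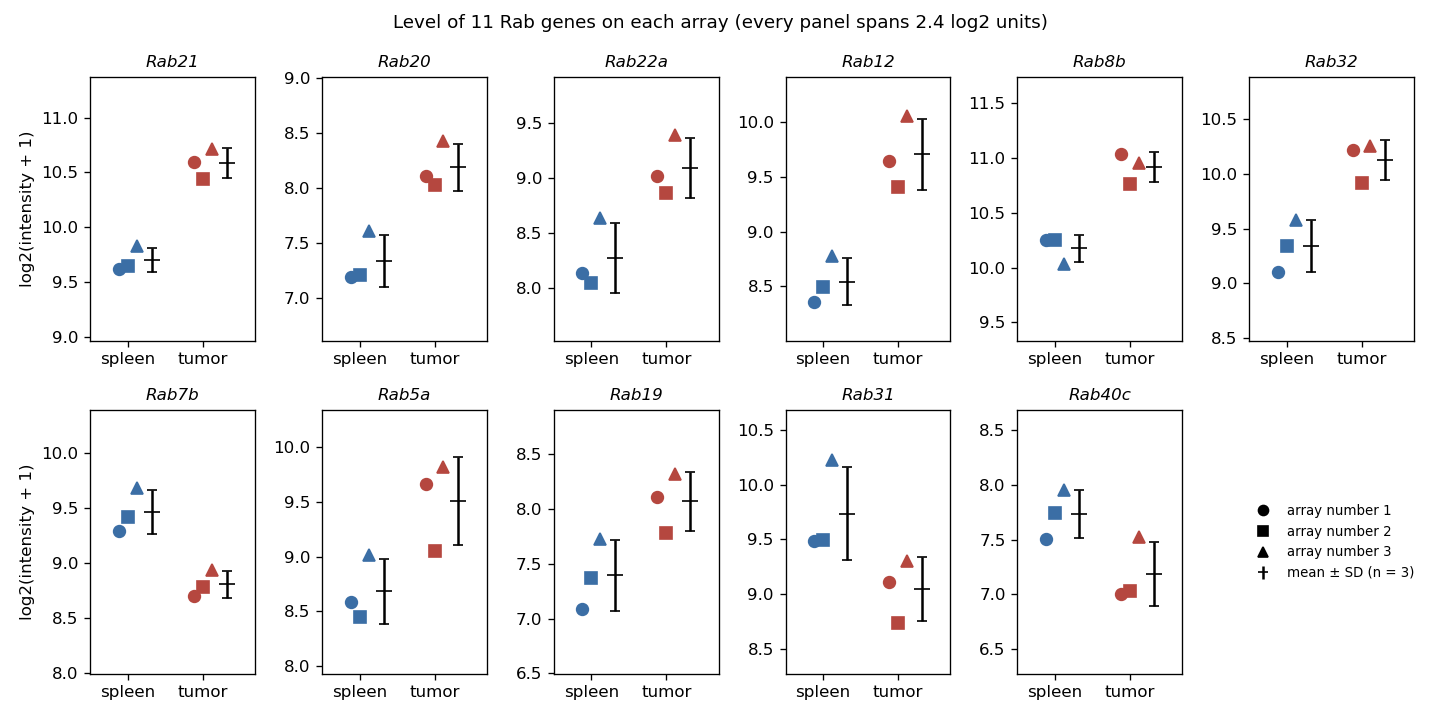
Level on each array (y axis, log2(intensity + 1); circle, square and triangle are array numbers 1, 2 and 3; bars are mean ± SD, n = 3) of the 7 called Rab genes and of 4 called with the replicate block but not without it. Rab21 runs from 9.62 to 9.83 in spleen and from 10.44 to 10.71 in tumor, and array 3 is the highest of its group in most panels.

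Late endosome and lysosome members went both ways, with 1 of 8 higher and 1 lower (12.5% each, against 5.73% and 4.85% of all genes). Rab32, which acts at lysosome-related organelles and binds the kinase LRRK2 (probe set 17239227, Entrez gene 67844), had 9.11, 9.34 and 9.58 in spleen and 10.21, 9.91 and 10.25 in tumor. The groups did not overlap, and the difference was 0.79 ± 0.18, or 1.72-fold (limma adjusted p = 0.0251). Rab32 was not called without spleen 1, spleen 2, tumor 1 or tumor 3 (adjusted p up to 0.117). Rab7b, of transport from endosomes to the trans-Golgi and known to restrain Toll-like receptor signals in macrophages (probe set 17217048, Entrez gene 226421), had 9.29, 9.42 and 9.69 in spleen and 8.70, 8.78 and 8.94 in tumor. It fell by 0.66 ± 0.16, to 0.633 of the spleen value (limma adjusted p = 0.0348), with all tumor values below all spleen values. Leaving out any array but tumor 3 ended the call (adjusted p up to 0.154). Rab7, the main GTPase of late endosome and lysosome fusion, had 12.21, 12.13 and 12.45 in spleen and 12.21, 12.09 and 12.32 in tumor, a difference of -0.05 ± 0.15 (limma adjusted p = 0.943). Rab29 (0.27 ± 0.29), Rab38 (0.25 ± 0.21), Rab9 (0.24 ± 0.20), Rab42 and Rab9b were not called in either fit.

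Members of the endoplasmic reticulum and Golgi had 0 of 16 limma calls in the fit without a block (2 at an unadjusted p under 0.05), and 3 higher (18.8%, against 11.7% of all genes) and 2 lower (12.5%, against 17.3%) with it. At an unadjusted limma p under 0.05 the whole family had 12 members (21.1%, against 21.6% of all genes). Rab19, whose upstream window ends in the interferon-type letters shown above, had 7.08, 7.37 and 7.72 in spleen and 8.11, 7.78 and 8.31 in tumor. The groups lay side by side without overlap, and the difference was 0.67 ± 0.21, or 1.60-fold (limma adjusted p = 0.0905, and 0.00701 with the replicate block). Rab19 was also called with quantile normalization (0.00866), median centring (0.02), cyclic loess (0.00564) and array weights (0.000507), and without spleen 3 (0.0386). Without spleen 1 its difference was 0.52 (0.277). Rab18, of lipid droplets, had 7.46, 7.59 and 7.91 in spleen and 8.34, 7.73 and 8.68 in tumor, with overlap, a difference of 0.59 ± 0.25 (limma adjusted p = 0.211). It was called with the block (0.0222), quantile normalization (0.0484), cyclic loess (0.0319) and array weights (0.0018), and was 0.38 without tumor 3. Rab33b, a Golgi GTPase with a part in autophagosome formation, stood at 0.40 ± 0.23 (limma adjusted p = 0.386), and was called with the block (0.0385), cyclic loess (0.0423) and array weights (0.00624). Without tumor 3 the difference of Rab33b was 0.21. On the lower side Rab1b, of transport from the endoplasmic reticulum to the Golgi, stood at -0.31 ± 0.18 (limma adjusted p = 0.41, 0.0429 with the block and 0.00525 with array weights). It was -0.20 without spleen 3 and -0.19 without tumor 1. Rab6b, of Golgi retrograde transport, had 6.23, 6.25 and 6.51 in spleen and 5.37, 5.07 and 6.47 in tumor, so that tumor 3 lay among the spleen values. Its difference was -0.69 ± 0.33 (limma adjusted p = 0.28, and 0.0367 with the block), it was -1.02 among the arrays numbered 1 and 2 (adjusted p = 0.0242), and without tumor 3 it was -1.11 (0.00788). Without tumor 2 the difference of Rab6b was -0.41 (adjusted p = 0.635). A second probe set of Rab6b stood at -0.14 ± 0.20, and with both averaged the difference was -0.42 (adjusted p = 0.458). Rab1a (0.10 ± 0.18), Rab2a (-0.17 ± 0.22) and Rab6a (0.17 ± 0.23), the ubiquitous members of this route, were not called.

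Members of regulated secretion had 0 of 9 limma calls without the block (0 at an unadjusted p under 0.05 too) and 1 with it, on the lower side (11.1%, against 17.3% of all genes), and a median difference of -0.17. Rab27a, which docks secretory lysosomes and exosomes, had 8.38, 8.53 and 8.75 in spleen and 8.77, 8.68 and 8.78 in tumor, and these ranges overlap (0.19 ± 0.15, limma adjusted p = 0.609). Rab27b, its relative prominent in platelets, lay between 3.39 and 3.98 on all arrays. Rab3b, a synaptic vesicle GTPase, was dim at 3.61 to 4.66 and stood at -0.32 ± 0.26 (limma adjusted p = 0.636, 0.0345 with the block and 0.0165 with array weights). Leaving out spleen 3 moved it to -0.10, tumor 1 to -0.17 and tumor 3 to -0.56. Rab3a, Rab3c, Rab3d, Rab26, Rab37 and Rab44 were not called. In the last group, of 4 cilium, ubiquitin ligase and other members with 0 calls (1 at an unadjusted p under 0.05), Rab40c, an adaptor of Cullin ubiquitin ligases, had 7.51, 7.74 and 7.95 in spleen and 7.01, 7.03 and 7.52 in tumor. The difference was -0.55 ± 0.20 (limma adjusted p = 0.135, 0.00528 with the replicate block, and 0.0425 among the arrays numbered 1 and 2), and tumor 3 lay just above spleen 1. Rab40c was also called with quantile normalization (0.0145), median centring (0.0217), cyclic loess (0.0301) and array weights (0.000318), and without tumor 3 (0.0426). Without tumor 1 its difference was -0.46 (0.416). Rab23, Rab28 and Rab40b were not called. In all, 40 members were called neither in the fit without the block nor in that with it, with differences from -0.27 (Rab43) to 0.41 (Rab30).

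Signal strength differed between members. Of the 57, 34 lay above the 75th percentile of every array, 21 above it on no array and 2 (Rab13 and Rab44) on some. All called members belonged to the first kind. Rab7, Rab1a and Rab1b had the brightest probe sets, which does not rank their transcripts, since probe sets differ in response. Tumor and spleen values did not overlap in 15 members, 11 higher (19.3%, against 9.81% of all genes) and 4 lower (7.02%, against 15.5%). The members not called in the fit without a block but without overlap were Rab5a, Rab19, Rab10, Rab28 and Rab30 on the higher side and Rab31, Rab24 and Rab43 on the lower.

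Related members were compared as ratios within each array, which takes out what an array's brightness does to both. Rab8b over Rab8a and Rab7b over Rab7 were set by the rule for named genes, as relatives sharing a number with a called gene. The other pairs were chosen after their values were seen. These were Rab5a, which was not called, over Rab5b and over Rab5c, and the close relatives in sequence Rab22a over Rab31 and Rab32 over Rab38. The log2 ratio of Rab22a to Rab31 was -1.35, -1.45 and -1.59 on spleen arrays 1 to 3 and -0.10, 0.13 and 0.09 on tumor arrays, a shift of 1.50. That of Rab5a to Rab5b went from -0.79 ± 0.09 to 0.26 ± 0.32, a shift of 1.05, and that of Rab5a to Rab5c shifted by 0.62. The ratio of Rab8b to Rab8a was 0.01, -0.00 and -0.52 in spleen and 0.55, 0.25 and 0.24 in tumor, a shift of 0.51, with spleen 3 the lowest. Rab7b to Rab7 went from -2.80 ± 0.11 to -3.41 ± 0.10, a shift of -0.61, and Rab32 to Rab38 from 3.91 ± 0.24 to 4.44 ± 0.32. In each of the 6 pairs the tumor ratios lay on the same side of all spleen ratios, and each reached the exact two-sided permutation p = 0.1 (0.1 after Benjamini-Hochberg adjustment over the 6), the smallest that 3 against 3 arrays can give. None of these shifts therefore passes a threshold of 0.05. The first gene of each pair already separated the groups on its own, so the separation of the ratios adds no independent support.

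**Figure D3:**
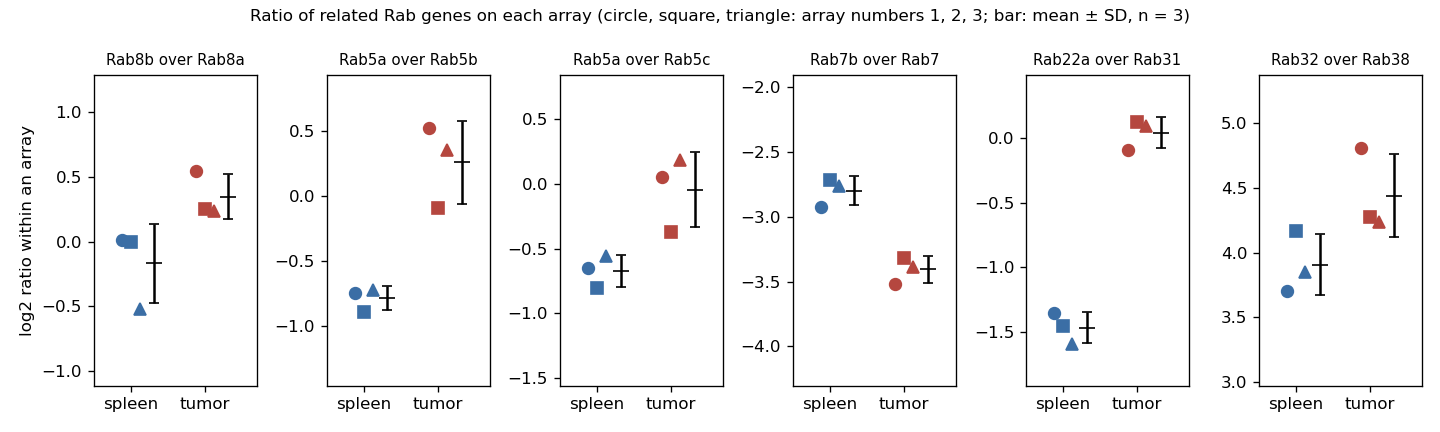
Log2 ratio of 2 related Rab genes within each array (y axis) for spleen and tumor (circle, square and triangle are array numbers 1, 2 and 3; bars are mean ± SD, n = 3). Rab22a over Rab31 moves from -1.46 ± 0.12 in spleen to 0.04 ± 0.12 in tumor.

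Many members also differed by array number. In 43 of the 57 members (75.4%) array 3 was the highest of its group in both tissues, against 61.8% of all genes, and 24 (42.1%, against 33.8%) after centring each array on its median. The difference between array 3 and the mean of arrays 1 and 2, averaged over tissues, had a median of 0.38 in Rab genes and 0.29 in all genes. It was largest in Rab13 (1.27), an epithelial tight junction GTPase, in Rab2b (1.03), of the Golgi, and in Rab29 (0.80), which recruits LRRK2 to membrane. Rab13 had 5.66, 5.47 and 6.72 in spleen and 5.80, 5.74 and 7.15 in tumor, so array 3 stood over 1 unit above its group mates while tissue made 0.28 ± 0.44. At the other end Rab39 (-0.63), Rab25 (-0.42) and Rab17 (-0.38) were lower on array 3. What the number 3 stands for is not given in the labels, and its source was not tested.

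**Figure D4:**
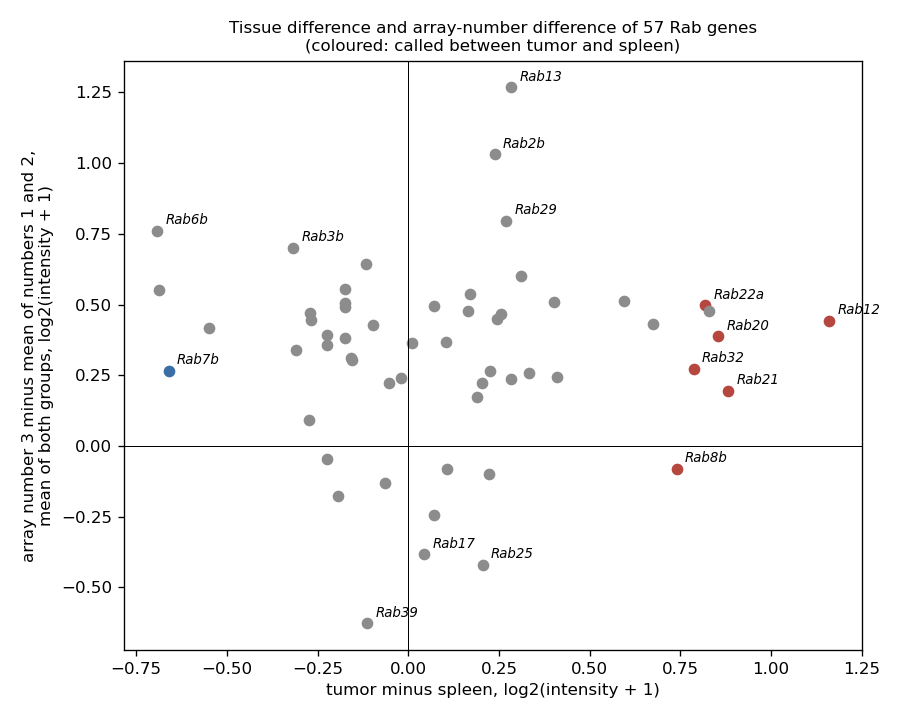
Difference between tissues (x axis, tumor minus spleen) against difference between array number 3 and the mean of numbers 1 and 2 (y axis, averaged over both tissues), both in log2(intensity + 1), for 57 Rab genes. Rab12 lies farthest right at 1.16 and Rab13 highest at 1.27; coloured points are the 7 called genes.

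Transcripts of genes whose proteins act on Rabs differed by -2.13 to 2.29. Of 118 tested genes on 4 lists of Rab regulators and effectors, 7 were called higher (5.93%, near the 5.73% of all genes) and 11 lower (9.32%, against 4.85%), and the median difference was -0.11. With the replicate block 17 were higher (14.4%, against 11.7%) and 38 lower (32.2%, against 17.3%). Among 34 exchange factors 2 were higher (5.88%) and 3 lower (8.82%), and 6 (17.6%) and 9 (26.5%) with the block. Dennd3, the exchange factor of Rab12, had 8.14, 8.10 and 8.24 in spleen and 9.83, 10.11 and 10.01 in tumor, a rise of 1.82 ± 0.15, or 3.54-fold (limma adjusted p = 0.000109). Rab3ip, or Rabin8, which activates Rab8, rose from 6.91, 7.10 and 7.45 to 8.59, 8.34 and 8.66, by 1.38 ± 0.18 (adjusted p = 0.00205). Their place beside Rab12 and Rab8b, which also rose, was picked after the values were seen. Rab3il1, or GRAB, the exchange factor related to Rab3ip, went the other way and fell by 1.94 ± 0.16 (adjusted p = 0.000137). Exchange factors related to each other thus stood on opposite sides. Als2cl, a relative of the Rab5 exchange factor alsin, fell by 1.06 ± 0.24 (adjusted p = 0.0239), and Dennd4c, of Rab10, by 0.78 ± 0.16 (adjusted p = 0.0188). Als2cl lost its call without spleen 2, spleen 3 or tumor 1 (limma adjusted p as high as 0.0937) and among the arrays numbered 1 and 2 (0.0848). Dennd4c lost it without spleen 1, spleen 2, tumor 1 or tumor 2 (as high as 0.094).

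**Figure D5:**
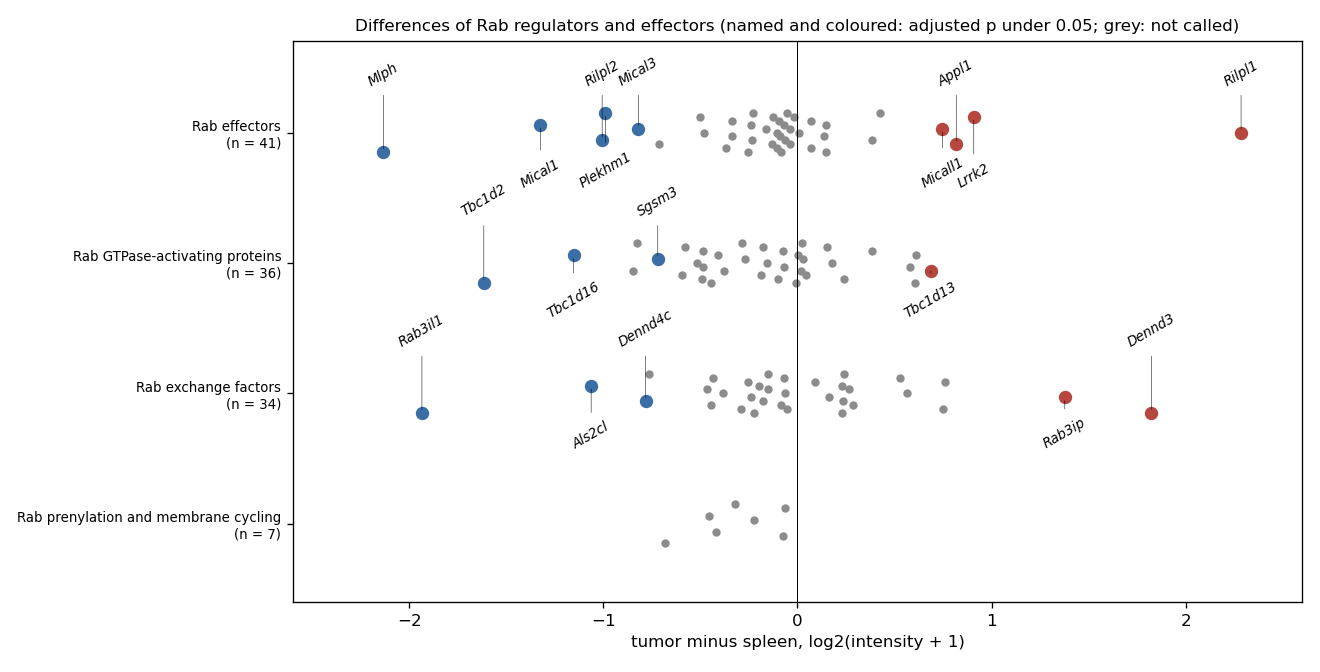
Differences between tumor and spleen (x axis, log2(intensity + 1)) of 118 regulators and effectors of Rab proteins in 4 lists (y axis; vertical scatter within a list only separates points). Coloured points are called, from Mlph at -2.13 to Rilpl1 at 2.29, and the list of prenylation and membrane cycling has 0 calls.

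Effectors had 4 of 41 members higher (9.76%, against 5.73% of all genes) and 5 lower (12.2%, against 4.85%). With the replicate block 6 were higher (14.6%, against 11.7%) and 11 lower (26.8%, against 17.3%). Rilpl1, which binds Rab8 and Rab10 after their phosphorylation by LRRK2, had 6.29 ± 0.46 in spleen and 8.58 ± 0.43 in tumor, with array 3 the highest of each tissue. It rose by 2.29 ± 0.28, or 4.88-fold (limma adjusted p = 0.00139). Lrrk2, the kinase that phosphorylates Rab8, Rab10 and Rab12 among others, rose by 0.91 ± 0.15 (adjusted p = 0.00692), from 7.05, 7.16 and 7.41 to 8.08, 8.06 and 8.22. The related Rilpl2 fell by 1.01 ± 0.15 (adjusted p = 0.00343), so these Rilp-like genes stood on opposite sides. Appl1, an adaptor on Rab5 endosomes (0.82 ± 0.15, adjusted p = 0.0112), and Micall1, of tubular recycling endosomes (0.75 ± 0.14, adjusted p = 0.0128), were the other rises. The largest fall was that of Mlph, melanophilin, which links Rab27a to myosin Va, from 7.86, 8.07 and 8.06 to 5.68, 5.79 and 6.12 (-2.13 ± 0.17, adjusted p = 9.4e-05). The actin oxidase Mical1 (-1.32 ± 0.14) and its relative Mical3 (-0.82 ± 0.19), and the Rab7 effector Plekhm1 (-0.99 ± 0.18), were lower too. Appl1 without spleen 1, spleen 2 or tumor 1, Micall1 without spleen 1, spleen 2 or tumor 2, Mical3 without spleen 2, spleen 3, tumor 1 or tumor 2, and Plekhm1 without tumor 1 lost the call (adjusted p up to 0.0668, 0.0675, 0.122 and 0.0607).

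GTPase-activating proteins had 1 of 36 members higher (2.78%, against 5.73% of all genes) and 3 lower (8.33%, against 4.85%). With the replicate block 5 were higher (13.9%, against 11.7%) and 14 lower (38.9%, against 17.3%). Tbc1d2, or Armus, which inactivates Rab7, had 8.35, 8.53 and 8.28 in spleen and 6.50, 6.80 and 7.01 in tumor, a difference of -1.62 ± 0.17, to 0.326 of the spleen value (limma adjusted p = 0.00062). Tbc1d16 (-1.15 ± 0.28, adjusted p = 0.0333) and the TBC-domain protein Sgsm3 (-0.72 ± 0.18, adjusted p = 0.0409) were lower, and Tbc1d13, which acts on Rab35, was higher (0.69 ± 0.18, adjusted p = 0.0465). Each of these 3 lost its call without 4 or 5 of the arrays in turn (adjusted p up to 0.131, 0.169 and 0.18), and Tbc1d16 also among the arrays numbered 1 and 2 (adjusted p = 0.0549). The genes that prenylate Rabs and carry them between cytosol and membrane had 0 limma calls among 7 (4 at an unadjusted p under 0.05, and 4 lower with the replicate block, 57.1% against 17.3% of all genes), with all 7 differences below 0. Of all genes only 41.4% lay above 0. Chml, a Rab escort protein, stood lowest at -0.68 ± 0.22 (adjusted p = 0.0933, and 0.00676 with the block). Gdi2, which extracts Rabs from membrane, stood at -0.07 ± 0.18.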

How the data were processed

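Total RNA of 6 samples was measured on 1 array each. The authors deposited linear intensity values per probe set, made with RMA per the submitters' processing notes, without version or setting; no source used here names the genome build. Of 41345 probe sets 23521 carry 1 gene symbol and were used. The probe set with the highest mean log2 value stood for a gene (7 Rab genes have several). Values were taken as log2(intensity + 1) and fitted with limma 3.58.1 in R 4.3.3 (lmFit, eBayes, two-sided, group as the only term), with Benjamini-Hochberg adjustment over 18458 genes and a threshold of 0.05. The fit was tested on simulated data with independent noise per gene and array, which lack the shared deviations described next. Spleen and tumor arrays of the same number deviated together (r = 0.36, 0.44 and 0.71 over genes for numbers 1, 2 and 3), so the number was also fitted as a block. Spleen 1 with tumor 2 (0.46) and spleen 2 with tumor 1 (0.35) did so alike, so the check sets apart number 3 but not 1 from 2, and what a number stands for is not stated. For Rab genes, values with the block stand where they change a call. For the gene lists mostly counts with the block are given.

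Members, role groups and gene lists were chosen with earlier results of these data known. Named by rule were every called Rab gene, those called with the block but not without it, relatives sharing a number with a called gene, the 3 brightest Rab rows and up to 4 called genes per direction of each regulator list. The sort markers, Mical3, the other Rab5 genes, Gdi2 and the uncalled members named with values were added after their values were seen. Alternatives were other normalizations, filters, pseudocount, probe set means, priors, array weights, the block, a stricter threshold and fewer arrays. The number of arrays limits precision.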

Additional observations from a re-analysis of the deposited data

How the results depend on the processing

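In the fit reported, 6 Rab genes were higher, 1 was lower, their median difference was 0.07, and 18 regulators and effectors were called. With the replicate block the counts were 11, 6 and 55; it ended no call. Among the arrays numbered 1 and 2 alone 3 were lower, the median was 0.00 and 36 regulators and effectors were called. Quantile normalization and median centring each gave 3 lower and 41 regulators and effectors, cyclic loess 12, 3 and 38 with a median of 0.14, and array weights 22, 11 and 64. Cyclic loess called 17.2% of all genes (10% higher, 7.21% lower). With array weights 2867 of all 18458 genes were higher and 4235 lower. At an adjusted p under 0.01 there were 2 higher (Rab12 and Rab21), 0 lower by limma (12 members in either direction at an unadjusted p under 0.05) and 9. Of all 18458 genes 651 were higher and 310 lower at this threshold. With each array left out in turn, 2 to 8 Rab genes were higher, 0 to 3 lower, the median ran from 0.012 to 0.15, and 10 to 24 regulators and effectors were called. Of all 18458 genes 662 to 1240 were then higher and 293 to 1036 lower. Over the 7 called Rab genes and all alternatives, 99 values kept their direction and call, 27 kept the direction without the call, and 0 reversed. Tumor and spleen values of these 7 do not overlap. Leaving out arrays, the block, another prior or a stricter threshold could therefore not reverse a direction. The other filters, pseudocount, probe set means and priors gave 5 to 7 higher, 1 lower and 16 to 23. Under these settings 1019 to 1126 of the 13327 to 22180 genes tested were higher and 822 to 1054 lower. Why the settings differ was not tested. Signal over background limits the 21 members below the 75th percentile of every array.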
